A study of Mus musculus with 31 samples.

Results

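Striatal GABAergic interneurons are sparse cells that shape the output of the far more numerous projection neurons, and their types are told apart by a few genes that can be read in bulk RNA. Parvalbumin cells fire fast and inhibit projection neurons close to the cell body, while another type makes somatostatin, neuropeptide Y and neuronal nitric oxide synthase together, releases the peptides, and signals locally through the nitric oxide that the enzyme forms. Calretinin and tyrosine hydroxylase mark further small types, and the same peptides and calcium-binding proteins also mark interneurons of the overlying cortex. The marker genes followed here are Pvalb, Sst, Npy, Nos1, Calb2, Lhx6, Vip, Th, Kit and Crhbp, listed by name as markers of these cells. All 10 were found by Ensembl identifier among the 52636 genes of the table, and all 10 passed the filter on low values in every comparison. On GRCm38 they lie at chr15:78191114-78206400 (Pvalb, minus strand), chr16:23889573-23890958 (Sst, minus), chr6:49822710-49829507 (Npy, plus), chr5:117781032-117958840 (Nos1, plus), chr8:110137502-110168210 (Calb2, minus), chr2:36081953-36105408 (Lhx6, minus), chr10:5639218-5647617 (Vip, plus), chr7:142892752-142931128 (Th, minus), chr5:75574916-75656722 (Kit, plus) and chr13:95431371-95444924 (Crhbp, minus), and values are for whole genes.

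Expression was measured in caudate putamen (CPu), the dorsal striatum, of 31 female mice aged 8 to 11 weeks, of the strain labelled C57BL/6NTac-Brd1, 1 library per mouse. Groups were 8 WT and 7 Brd1+/- mice administered vehicle (saline) and 8 WT and 8 Brd1+/- mice administered the antidepressant imipramine (IMN) at 10 mg/kg. Brd1+/- mice carry a targeted deletion in 1 copy of Brd1, a chromatin regulator, in all cells. By the study's methods, saline or IMN was injected under the skin on consecutive days, with tail suspension after the first injection and open field and forced swim after the next, so mice of every group had been swum shortly before a punch of right CPu was taken. Values are TPM (TPM counts transcripts relative to the sum of a library), which are scaled to gene length and to a fixed sum per library, so that levels of different genes can be set side by side. Read depth is unknown from TPM, and the mice are separate animals by their labels, so that all p-values measure the spread between mice. Brd1 itself, as mean ± SD of TPM, was 22.5 ± 2.97 in 8 WT against 13.4 ± 2.03 in 7 Brd1+/- mice after vehicle, and 19.9 ± 2.67 against 12.8 ± 1.04 in 8 mice each after IMN.

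The libraries differed in genes of cortical tissue. The mean log2(TPM + 1) of 10 genes of cortical excitatory neurons ranged from 0.844 to 5.50 in vehicle administered WT mice, from 1.18 to 2.97 in vehicle administered Brd1+/- mice, from 0.825 to 4.49 in WT mice under IMN and from 0.971 to 3.33 in Brd1+/- mice under IMN. Its widest gap, from 3.33 to 3.97, left 8 mice above and 23 below. The 8 were vehicle administered WT mice 1, 2, 3, 4, 5 and 7 and WT mice 5 and 8 under IMN, and no Brd1+/- mouse was among them. Vehicle administered WT mouse 2 stood farthest, as the only library whose cortical mean, 5.50, was above its mean of 12 genes of striatal projection neurons, 2.98. The summed TPM of the cortical list was 11.96 to 1878 in vehicle administered WT, 18.8 to 227.8 in vehicle administered Brd1+/-, 10.4 to 1066 in IMN administered WT and 14.6 to 370.5 in IMN administered Brd1+/- mice. Vehicle administered WT mouse 7, labelled female, had 26.8 TPM of 4 Y-linked genes in sum, against at most 0.188 TPM in any other mouse. Main results for the marker genes are also given without these mice. Without the 8, only vehicle administered WT mice 6 and 8 are left in that group.

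By the median over all mice Sst was the most abundant marker gene and Crhbp the least. Among the 23 mice below the cortical gap Vip was lowest, at a median of 0.876 TPM against 1.15 TPM for Crhbp. Pvalb (13.3 TPM) was then also under Lhx6 (13.6 TPM). Over all 31 mice the medians were 443.1 TPM for Sst, 218.8 TPM for Npy, 19.4 TPM for Kit, 17.7 TPM for Nos1, 15.7 TPM for Pvalb, 13.6 TPM for Lhx6, 4.77 TPM for Th, 3.70 TPM for Calb2, 2.099 TPM for Vip and 1.64 TPM for Crhbp. Sst lay above Npy, Npy above Kit and Lhx6 above Th in 31 of 31 mice, so these steps stood out from the spread. The other neighbours in the order crossed often: Kit was above Nos1 in 22, Nos1 above Pvalb in 18, Pvalb above Lhx6 in 17, Th above Calb2 in 19, Calb2 above Vip in 18 and Vip above Crhbp in 17 of the 31. The genes also differed in how widely they ranged between mice. The highest mouse was 2.36 times the lowest for Sst, 2.43 times for Npy, 2.83 times for Lhx6 and 2.97 times for Kit, but 151.2 times for Pvalb and 115.0 times for Crhbp. Among the 23 mice below the cortical gap the ratio was 1.53 for Sst, 1.52 for Npy, 1.77 for Nos1 and 11.5 for Pvalb.

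The sequences just before the transcription start of 5 of the genes are shown because Sst and Npy, and Vip and Crhbp, moved together between mice in the results that follow, and because cAMP signalling through the cAMP response element (CRE) is a well known input to peptide genes. They are from RefSeq on GRCm38.p6, each 150 bases long and read towards the start, at chr16:23890845-23890994 (minus strand) for Sst, chr6:49822560-49822709 (plus) for Npy, chr10:5639068-5639217 (plus) for Vip, chr13:95444832-95444981 (minus) for Crhbp and chr7:142899996-142900145 (minus) for Th. Capitals mark the full CRE, TGACGTCA, its half-site, TGACG or CGTCA, and TATAAA, the TATA box.
Sst: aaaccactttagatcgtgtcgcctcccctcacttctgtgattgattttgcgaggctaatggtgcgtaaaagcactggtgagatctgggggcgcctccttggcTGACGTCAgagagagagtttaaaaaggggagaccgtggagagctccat
Npy: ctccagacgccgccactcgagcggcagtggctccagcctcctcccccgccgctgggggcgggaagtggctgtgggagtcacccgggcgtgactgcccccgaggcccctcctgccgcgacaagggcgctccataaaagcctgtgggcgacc
Vip: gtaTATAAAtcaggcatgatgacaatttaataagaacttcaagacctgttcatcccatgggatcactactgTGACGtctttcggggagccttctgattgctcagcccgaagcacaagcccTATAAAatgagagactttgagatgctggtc
Crhbp: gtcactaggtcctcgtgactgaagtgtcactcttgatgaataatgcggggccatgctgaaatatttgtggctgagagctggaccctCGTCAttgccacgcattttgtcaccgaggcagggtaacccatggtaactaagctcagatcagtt
Th: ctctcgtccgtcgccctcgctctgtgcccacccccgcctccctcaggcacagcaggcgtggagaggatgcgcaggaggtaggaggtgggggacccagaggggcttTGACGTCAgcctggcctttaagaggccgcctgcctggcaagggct
RefSeq promoters were matched for 9 of the 10 genes (Calb2 was not matched), and both strands of the 250 bases before each start were searched. The full CRE was found in Sst, beginning 48 bases before the start, and in Th, 45 bases before it, and in 1.55% of all 32851 promoters. A half-site without the full CRE was found 79 bases before the start of Vip, 64 bases before that of Crhbp and 130 bases before that of Nos1, against a half-site in 17.8% of all promoters, the full CRE included. TATAAA or its reverse complement TTTATA occurred 3 times before Vip, 30, 147 and 157 bases from its start, and in 12.4% of all promoters. None of these motifs, nor the homeodomain core TAATTA (4.84% of promoters) or the E-box CACGTG (6.02%), was in the windows of Pvalb, Npy, Lhx6 and Kit. These matches are descriptions of letters and do not show binding.

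The first comparison was Brd1+/- against WT mice administered vehicle. Genotype and cortical gene content are mixed in it, since 6 WT mice and no Brd1+/- mouse were above the cortical gap. Of the 10 marker genes, 3 had a p under 0.01 in limma and all 3 were lower in Brd1+/- mice, namely Pvalb, Sst and Npy. Over all 23200 genes tested, 13.6% had a p under 0.01, and 12.1% were lower, so that 3 of 10 has to be read against a comparison in which many genes were lower. That balance depended on the scaling, since after median-of-ratios scaling, where 1 marker gene (Npy) had a p under 0.01, 5.33% of genes were lower and 3.88% higher, against 12.1% and 1.47% as deposited. No marker gene reached an FDR of 5%, and neither did any other gene (0 of 23200). Even Brd1, the targeted gene, missed it, with a log2 fold change of -0.71 (adjusted p = 0.0556 in limma). The study, by edgeR on counts, reported Brd1 as lower after FDR correction in this comparison. Calb2, Vip and Crhbp were lower with a p between 0.01 and 0.05, so that 6 of 10 were lower at p under 0.05, against 26.2% of all genes, and Nos1, Lhx6, Th and Kit had a p above 0.05. With a pseudocount of 0.1 in place of 1, Calb2, Vip and Crhbp (adjusted p = 0.188, 0.353 and 0.268 in limma) lost a p under 0.05, which left 3 of 10, against 25.9% of all genes. Calb2 and Vip also lost it without WT mouse 2 and without WT mouse 7, and Calb2 after median-of-ratios scaling and with no filter on low values. The median log2 fold change of the 10 was -0.48, against -0.13 over all genes tested, and it was 0.09 without the 8 mice above the cortical gap. In tissue, fewer cells of a type and less RNA per cell cannot be told apart, and this holds for every value here.

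**Figure D1:**
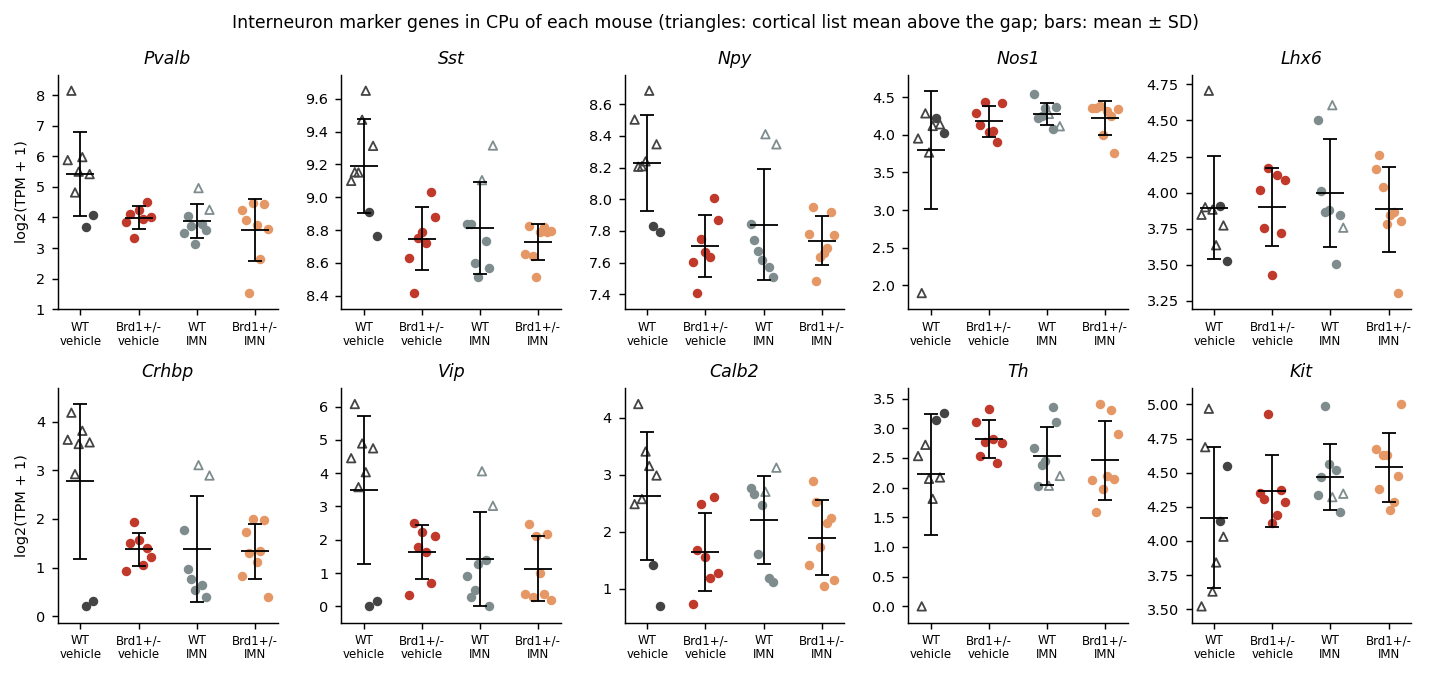
Level of each marker gene in every mouse as log2(TPM + 1), by genotype and treatment, with the mean and SD of each group. Axes do not start at 0. Open triangles are the 8 mice above the gap in the cortical list mean. In the vehicle administered WT group the triangles hold the highest Pvalb, Sst, Npy, Vip and Crhbp values, and the filled points of WT mice 6 and 8 lie with or below the other groups.

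Sst, the peptide that names the somatostatin type, was at 547.8, 568.3, 567.6, 709.7, 802.4, 479.5, 635.3 and 433.7 TPM in vehicle administered WT mice 1 to 8. In vehicle administered Brd1+/- mice its lowest, median and highest levels were 340.5, 430.6 and 521.9 TPM, and 3 values given in this way for a group are in that order from here on. The 6 WT mice above the cortical gap were all above every Brd1+/- mouse, and WT mice 6 and 8, at 479.5 and 433.7 TPM, were within the Brd1+/- range. Sst was lower by a log2 fold change of -0.44 (SE 0.125, Benjamini-Hochberg adjusted p = 0.0556 in limma). Npy, a peptide that the same cells and some others release, was at 221.1, 298 and 410.8 TPM in WT and at 168.7, 202.1 and 256.6 TPM in Brd1+/- mice. Again the 6 WT mice above the gap were above the whole Brd1+/- group, and the other WT mice were inside it. Npy was lower by -0.52 on the log2 scale (SE 0.129, adjusted p = 0.0556 in limma). Both genes kept a p under 0.01 in all 15 fits that left out 1 of the mice.

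Whether Sst and Npy passed an FDR of 5% depended on single choices. With genes of a mean of at least 1 TPM, which leaves fewer genes to adjust over, the adjusted p was 0.0456 for Sst and 0.0451 for Npy in limma, but 10.5% of all genes passed there as well. Without vehicle administered WT mouse 6 it was 0.0191 and 0.0107, with 19.9% of all genes passing, and without mouse 8 it was 0.0101 and 0.00739, with 23.8% passing. Over all 23 alternatives, adjusted p ranged from 0.0101 to 0.958 for Sst and from 0.00739 to 0.947 for Npy. At the upper ends stood the fit without the 8 mice above the cortical gap, where the log2 fold change was -0.09 (adjusted p = 0.958) for Sst and -0.11 (adjusted p = 0.947) for Npy, with 2 WT mice against 7. With the cortical list mean as a covariate the values were -0.26 (adjusted p = 0.640) and -0.31 (adjusted p = 0.568). Scaling TPM by the median of ratios, which moved the median of all genes from -0.13 to near 0 (-0.00072), left -0.25 (adjusted p = 0.176) for Sst and -0.33 (adjusted p = 0.0931) for Npy.

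Nos1, the synthase of nitric oxide in the same cells, did not share this pattern. It was at 2.72, 15.8 and 18.5 TPM in vehicle administered WT and at 14.0, 16.5 and 20.6 TPM in Brd1+/- mice. Apart from WT mouse 2, which was lowest at 2.72 TPM, and WT mouse 4, at 12.6 TPM, the WT mice were within the Brd1+/- range. Its log2 fold change was 0.38 (SE 0.282, adjusted p = 0.371), but 0.11 (adjusted p = 0.515) without WT mouse 2 and 0.06 (adjusted p = 0.976) without the 8 mice above the gap. Nos1 shares its position on chromosome 5 with an antisense gene, Gm26995, and whether reads were assigned by strand is not given in the sources used here, so that reads of the pair may be mixed. As mean ± SD, the ratio of Nos1 to Sst was 0.0250 ± 0.0106 for vehicle administered WT (8 mice), 0.0408 ± 0.00812 for vehicle administered Brd1+/- (7 mice), 0.0421 ± 0.00978 for IMN administered WT (8 mice) and 0.0422 ± 0.00651 for IMN administered Brd1+/- (8 mice). The ratio of Npy to Sst varied less, 0.516 ± 0.0667, 0.485 ± 0.0153, 0.511 ± 0.0525 and 0.504 ± 0.0457 in the same order of groups (SD, n = 8, 7, 8 and 8).

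Pvalb, the calcium-binding protein of fast-spiking cells, had the widest range of the marker genes above 0 in every mouse. It was at 11.8, 43.1 and 283.6 TPM in vehicle administered WT and at 9.05, 15.1 and 21.7 TPM in Brd1+/- mice. WT mouse 2 held the top value, the other 5 WT mice above the cortical gap were between 27.2 and 62.0 TPM, above all Brd1+/- mice, and WT mice 6 and 8 were inside the Brd1+/- range at 11.8 and 15.7 TPM. The log2 fold change was -1.44 (SE 0.487, adjusted p = 0.0716 in limma, 0.0199 to 0.969 over 23 alternatives). Its unadjusted p stood close to the threshold. That p was under 0.01 in 4 of the 15 fits that left out 1 mouse, those without WT mouse 2, 3, 6 or 8, and between 0.0104 and 0.0211 in the fits without WT mouse 1, 4, 5 or 7 or any 1 of the 7 Brd1+/- mice. It was also above 0.01 after median-of-ratios scaling (adjusted p = 0.123), with no filter on low values (adjusted p = 0.111) and with the replicate number as a block (adjusted p = 0.0785). Without WT mouse 2 the fold change was -1.05 on the log2 scale (adjusted p = 0.0887). Without the 8 mice above the gap it turned to 0.12 (adjusted p = 0.969), and with the cortical mean as a covariate it was -0.52 (adjusted p = 0.780).

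Lhx6, the transcription factor that marks Pvalb and Sst cells by their shared origin in the medial ganglionic eminence, had a log2 fold change near 0. It was at 10.5, 13.6 and 25.1 TPM in vehicle administered WT and 9.78, 15.2 and 17.0 TPM in Brd1+/- mice. WT mouse 3 was highest, and the rest of both groups overlapped. Lhx6 differed by 0.0039 on the log2 scale (SE 0.159, adjusted p = 0.989), and it was 0.18 after median-of-ratios scaling, 0.18 without the 8 mice and -0.01 without WT mouse 7.

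Vip, a peptide of caudal eminence interneurons that are common in cortex, was at 0, 18.1 and 66.4 TPM in vehicle administered WT and at 0.263, 2.45 and 4.72 TPM in Brd1+/- mice. The 6 WT mice above the gap were all above the Brd1+/- range, and WT mouse 6, listed at 0, and WT mouse 8, at 0.114 TPM, were both below it. The log2 fold change was -1.87 (SE 0.808, adjusted p = 0.132 in limma). Crhbp, which binds corticotropin-releasing hormone, split the same way, at 0.150, 10.8 and 17.2 TPM in WT and 0.910, 1.64 and 2.86 TPM in Brd1+/- mice. WT mice 6 and 8, at 0.150 and 0.244 TPM, were below every Brd1+/- mouse and the other 6 were above every one. Its log2 fold change was -1.40 (SE 0.560, adjusted p = 0.108 in limma). Without the 8 mice above the gap both genes turned, to 1.54 (adjusted p = 0.945) for Vip and 1.12 (adjusted p = 0.945) for Crhbp, higher in Brd1+/- mice and for Crhbp with a p under 0.01, with only 2 WT mice. Over 9 alternatives, adjusted p ranged from 0.111 to 0.971 for Vip and from 0.0909 to 0.9999 for Crhbp. With the cortical mean as a covariate the values were 0.08 (adjusted p = 0.971) for Vip and -0.00011 (adjusted p = 0.9999) for Crhbp.

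Calb2, the calcium-binding protein calretinin, was at 0.610, 5.94 and 17.95 TPM in vehicle administered WT and 0.656, 1.94 and 5.07 TPM in Brd1+/- mice, with 4 of the 8 WT mice above the Brd1+/- range. The log2 fold change was -0.98 (SE 0.448, adjusted p = 0.152 in limma), and 0.59 (adjusted p = 0.945, and 0.129 to 0.998 over 9 alternatives) without the 8 mice above the gap. Th, the enzyme that opens catecholamine synthesis, leaned the other way. It was at 0, 4.14 and 8.54 TPM in WT and 4.34, 5.84 and 9.04 TPM in Brd1+/- mice, with 4 WT mice, all above the gap, below the Brd1+/- range and WT mouse 2 listed at 0. Th differed by 0.60 on the log2 scale (SE 0.371, adjusted p = 0.281), by 0.28 (adjusted p = 0.411) without WT mouse 2, and by -0.37 (adjusted p = 0.945, and 0.246 to 0.994 over 9 alternatives) without the 8 mice. Kit, a receptor tyrosine kinase of some interneurons and of mast cells, was at 10.5, 16.01 and 30.3 TPM in WT and 16.5, 18.8 and 29.5 TPM in Brd1+/- mice, and 4 WT mice above the gap were below the Brd1+/- range. It differed by 0.19 on the log2 scale (SE 0.203, adjusted p = 0.539), and by 0.02 (adjusted p = 0.992) without the 8 mice. The mast cell genes Tpsb2, Cma1 and Fcer1a were listed at 0 in all 31 mice, and the 5 mast cell genes summed to at most 0.174 TPM in any mouse.

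In the comparison under vehicle none of the 10 marker genes separated the genotypes completely, and over all genes 0.289% did.

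**Figure D2:**
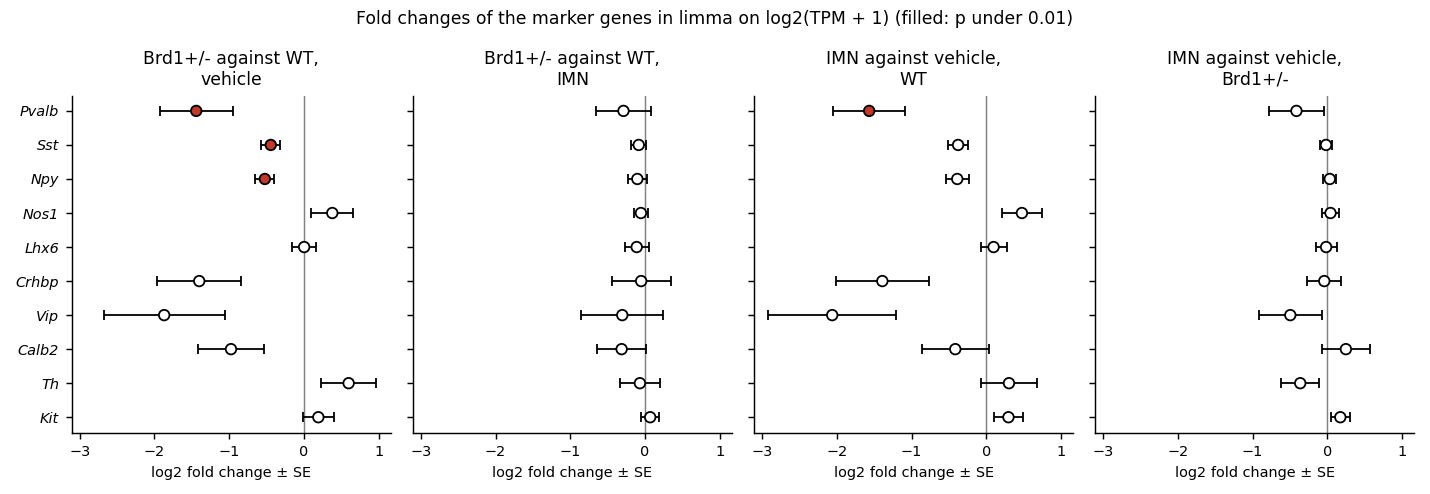
Log2 fold change and SE of each marker gene in 4 comparisons, fitted by limma on log2(TPM + 1). Filled points have a p under 0.01. Pvalb, Sst and Npy are filled under vehicle and Pvalb in the IMN comparison of WT mice, and all points of the other comparisons are open.

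The second comparison was Brd1+/- against WT mice that both received IMN. No marker gene had a p under 0.01 or under 0.05 in limma, and 0.703% of the 23339 genes tested had a p under 0.01. Log2 fold changes were between -0.31 for Calb2 (SE 0.331) and 0.07 for Kit (SE 0.118). Sst had medians of 439.8 TPM in WT and 440.9 TPM in Brd1+/- mice under IMN, with a log2 fold change of -0.08 (SE 0.101, adjusted p = 0.998). WT mice ranged from 364.2 to 636.3 TPM, with mice 5 and 8, both above the cortical gap, at the top, and Brd1+/- mice from 364.8 to 453.1 TPM. Npy had medians of 208.4 TPM and 212.1 TPM and a log2 fold change of -0.10 (SE 0.126, adjusted p = 0.998). The Pvalb medians were 12.4 and 13.4 TPM, with a log2 fold change of -0.29 (SE 0.373, adjusted p = 0.998), and the lowest Pvalb of the 31 mice, 1.88 TPM, was in Brd1+/- IMN mouse 3.

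The third comparison, IMN against vehicle in WT mice, shares its vehicle group with the first, so their directions are not independent. Pvalb was the 1 marker gene with a p under 0.01, against 6.95% of the 23579 genes tested, or 5.6% for genes that were lower. It ranged from 7.75 to 30.2 TPM under IMN with a median of 12.4 TPM, set beside the WT vehicle values above, and WT IMN mice 5 and 8 held the top values, 30.2 and 18.1 TPM. The log2 fold change was -1.57 (SE 0.480, adjusted p = 0.141 in limma). It kept a p under 0.01 in 15 of the 16 fits that left out 1 mouse, and had a p of 0.0104 without WT IMN mouse 4. Without the 8 mice above the gap it was -0.25 (adjusted p = 0.771), and -0.72 (adjusted p = 0.793) with the cortical mean as a covariate, and over 24 alternatives adjusted p ranged from 0.0410 to 0.793. Sst (-0.38, SE 0.136, adjusted p = 0.149), Npy (-0.39, SE 0.154, adjusted p = 0.165), Vip (-2.06, SE 0.853, adjusted p = 0.173) and Crhbp (-1.39, SE 0.624, adjusted p = 0.196) were lower with a p between 0.01 and 0.05, so that 5 of 10 were lower at p under 0.05, against 18% of all genes. Vip and Crhbp lost a p under 0.05 with a pseudocount of 0.1 (adjusted p = 0.288 and 0.300), without WT vehicle mouse 7 (0.257 and 0.284) and without WT vehicle mouse 2 (0.286 and 0.315). With the cortical mean as a covariate the values were -0.13 for Sst (adjusted p = 0.850), -0.09 for Npy (adjusted p = 0.895), -0.21 for Vip (adjusted p = 0.928) and 0.02 for Crhbp. Without the 8 mice above the gap Sst was -0.16 (adjusted p = 0.694), Npy -0.15 (adjusted p = 0.656) and Crhbp 0.59, and Vip did not pass the filter on low values. Calb2, Nos1, Lhx6, Th and Kit were between -0.41 and 0.48, each with a p above 0.05. After median-of-ratios scaling Nos1 gained a p under 0.05, at 0.59 (adjusted p = 0.239 in limma). Leaving out WT vehicle mouse 6 or 8 raised the number of marker genes with a p under 0.01 to 4 and 5, and leaving out WT IMN mouse 5 or 8 to 4 and 3, all lower under IMN. In those fits 11%, 12.9%, 8.45% and 6.63% of all genes were lower at p under 0.01, in the same order.

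Other gene lists moved in the same comparison of WT mice. All 7 cholinergic interneuron genes (median 1.32) and 10 of 12 striatal projection neuron genes (median 1.48) were higher under IMN at p under 0.05, against 5.17% of all genes, and 6 of 10 cortical genes (median -1.96) were lower, against 18%. These medians were -0.18, -0.12 and 1.23 without the 8 mice above the gap. Of 5 erythrocyte genes, 4 were lower at p under 0.05 and 2 of these at p under 0.01, Hba-a2 (-0.57, SE 0.173, adjusted p = 0.141) and Hba-a1 (-0.55, SE 0.175, adjusted p = 0.141), near-identical genes of alpha globin whose reads may be split between them. The erythrocyte median was -0.54, with 0 lower at p under 0.01 after median-of-ratios scaling (median -0.42) or with the cortical covariate (-0.55) and 3 lower without the 8 mice (-0.83). The part of blood in the marker gene values was not tested.

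In Brd1+/- mice, IMN against vehicle gave no marker gene with a p under 0.01 or 0.05 in limma, while 1.83% of the 23020 genes tested had a p under 0.01. Sst differed by -0.02 (SE 0.0793), Npy by 0.03 (SE 0.0871), Nos1 by 0.04 (SE 0.108) and Lhx6 by -0.02 (SE 0.139) on the log2 scale, each a small difference with a small error. The values furthest from 0 were -0.50 for Vip (SE 0.422, adjusted p = 0.859) and -0.41 for Pvalb (SE 0.367, adjusted p = 0.866). Th had medians of 5.84 TPM under vehicle and 3.50 TPM under IMN, with 5 of the 8 IMN mice below the vehicle range and 1 above it, and a log2 fold change of -0.36 (SE 0.254, adjusted p = 0.818). All mice of these groups were below the cortical gap.

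Whether IMN acted alike in both genotypes was tested as an interaction term, fitted on all 31 mice. No marker gene had a p under 0.01 in limma, against 3.74% of 25394 genes. Npy (0.42, SE 0.185, adjusted p = 0.280) and Sst (0.36, SE 0.163, adjusted p = 0.284) had a p under 0.05, as had 12.5% of all genes in this direction. Both lost it after median-of-ratios scaling, at 0.28 (adjusted p = 0.414) for Npy and 0.22 (adjusted p = 0.517) for Sst, with the covariate, at 0.18 and 0.17 (adjusted p = 0.930 for each), and without the 8 mice, at 0.19 and 0.14 (adjusted p = 0.99996 for each), and Sst also lost it without WT vehicle mouse 7 (0.34, adjusted p = 0.350). Pvalb had 1.15 (SE 0.638, adjusted p = 0.364) and Crhbp 1.35 (SE 0.709, adjusted p = 0.339), and they were -0.17 and -0.63 without the 8 mice. Between vehicle administered Brd1+/- and IMN administered WT mice, 0 of 10 marker genes had a p under 0.01 or under 0.05 in limma, with 2.29% of 23085 genes at a p under 0.01. The log2 fold changes there, as Brd1+/- vehicle over WT IMN, ran from -0.56 for Calb2 (SE 0.347) to 0.29 for Th (SE 0.202).

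The marker genes differed in how they went with the cortical list mean. The relation was computed on each side of the widest gap in that mean, for 10 genes. The gap is a cut through a graded mean, which ran from 0.825 to 3.33 below it and from 3.97 to 5.50 above it. The permutations ran over all mice of a side and did not keep genotype and treatment groups apart. Among the 23 mice below the gap, Crhbp had a Pearson r of 0.888 (permutation p = 2e-05, the smallest they can give, adjusted p = 0.0002) and a Spearman rho of 0.901 (permutation p = 2e-05), and r was 0.852 without the 2 farthest mice. Vip followed with r = 0.769 (permutation p = 0.0001, adjusted p = 0.0005) and rho = 0.787 (permutation p = 6e-05), and r was 0.724 without the 2 farthest. Calb2 had r = 0.428 (permutation p = 0.0414, adjusted p = 0.104) with rho = 0.498 (permutation p = 0.0167), and Th r = -0.478 (permutation p = 0.0226, adjusted p = 0.0753) with rho = -0.425 (permutation p = 0.0440). Sst (r = 0.0592, permutation p = 0.786), Npy (r = 0.158, permutation p = 0.468), Lhx6 (r = -0.0125, permutation p = 0.954), Kit (r = -0.156, permutation p = 0.475), Pvalb (r = 0.310, permutation p = 0.147) and Nos1 (r = -0.348, permutation p = 0.108) each had a permutation p above 0.1. Their rho values were 0.0820, 0.134, -0.0524, -0.0652, 0.330 and -0.257 in the same order, with permutation p from 0.122 to 0.813.

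**Figure D3:**
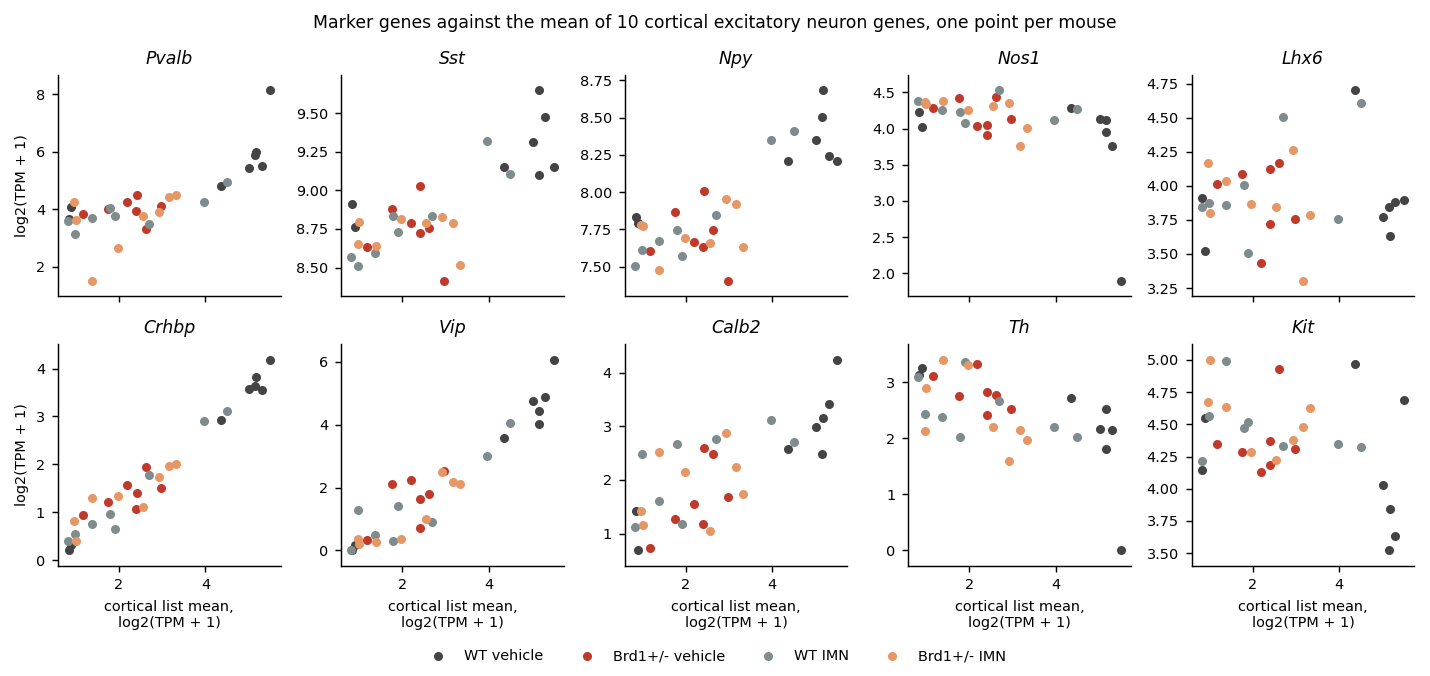
Level of each marker gene, log2(TPM + 1), against the mean of 10 cortical excitatory neuron genes in the same mouse, colored by group. Crhbp and Vip rise along the axis to the left of the gap (r = 0.888 and 0.769), while Sst and Npy are flat to the left of the gap (3.33 to 3.97) and higher to its right.

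Among the 8 mice above the gap the exact permutation tests gave r = 0.936 for Crhbp (exact p = 0.00149), 0.875 for Vip (exact p = 0.00164) and 0.822 for Pvalb (exact p = 0.000942), each with an adjusted p of 0.00546. Their rho values were 0.857 (exact p = 0.0107), 0.833 (exact p = 0.0154) and 0.929 (exact p = 0.00223), and r without the 2 farthest mice was 0.892, 0.715 and 0.750. Nos1 went down, with r = -0.589 (exact p = 0.0126, adjusted p = 0.0314) and rho = -0.714 (exact p = 0.0576), and r = -0.693 without the 2 farthest. The remaining genes had adjusted p from 0.165 to 0.877 in these exact tests. Of these 8 mice 6 had received vehicle and 2 IMN, so that treatment is mixed into these values. Within the 6 vehicle administered WT mice, r was 0.924 for Crhbp (exact p = 0.0361), 0.811 for Vip (exact p = 0.0333) and 0.748 for Pvalb (exact p = 0.0306), each with an adjusted p of 0.0722. Their rho values there were 0.657 (exact p = 0.175), 0.771 (exact p = 0.103) and 0.829 (exact p = 0.0583). Without the 2 farthest of the 6 mice r was -0.0906, 0.139 and 0.121, so that within this group the relation of these 3 genes rests on those mice. Nos1 had r = -0.654 (exact p = 0.00556, adjusted p = 0.0556) and rho = -0.943 (exact p = 0.0167) in the 6 mice, and r = -0.862 without the 2 farthest. Between the sides, 4 of the 10 marker genes were higher in every mouse above the gap than in any mouse below it, as were 4.66% of all 25394 genes, with 0.0945% lower in the same sense. They were Sst, at 547.8 to 802.4 TPM against 340.5 to 521.9 TPM, Npy, at 294.2 to 410.8 TPM against 168.7 to 256.6 TPM, Vip, at 7.10 to 66.4 TPM against 0 to 4.72 TPM, and Crhbp, at 6.44 to 17.2 TPM against 0.150 to 3.01 TPM. The 8 mice are all WT, so that this contrast and genotype are mixed. The part of cortical tissue in the group differences was not tested beyond the covariate and the fits without these mice.

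**Figure D4:**
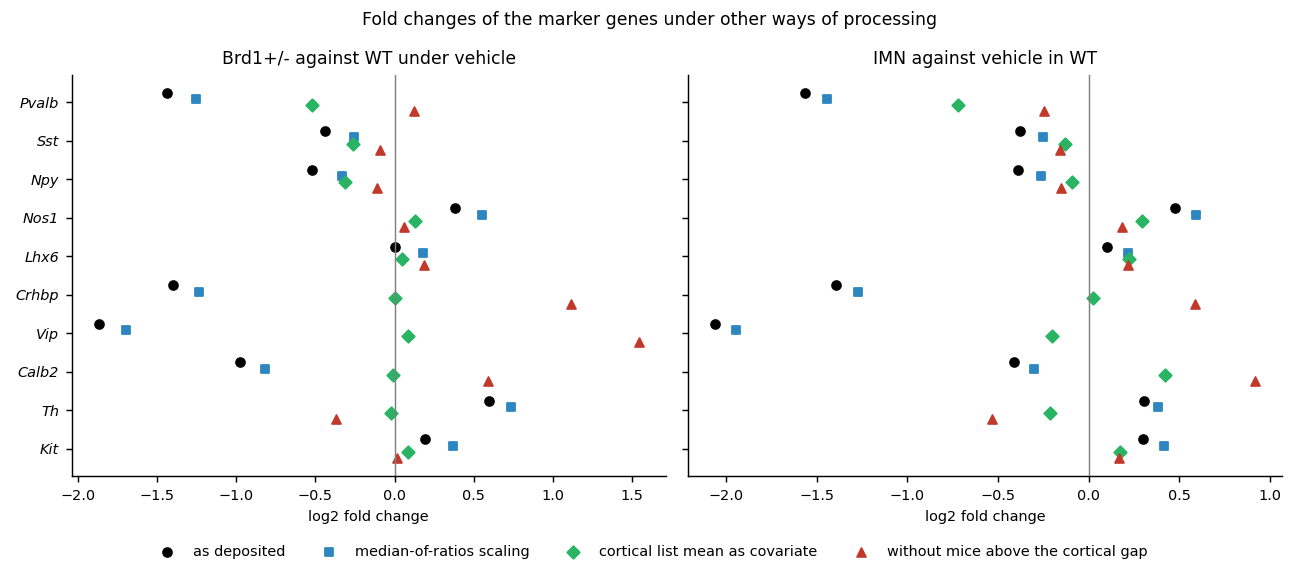
Log2 fold change of each marker gene in 2 comparisons as deposited, after median-of-ratios scaling, with the cortical list mean as a covariate and without the 8 mice above the gap. The covariate brings Vip, Crhbp and Calb2 close to 0 under vehicle (0.08, -0.00011 and -0.01). Without the 8 mice these 3 genes stand above 0 (1.54, 1.12 and 0.59).

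The marker genes were also compared with each other across mice, as correlations of log2(TPM + 1) centred on the group means. These are descriptions, since all values of a mouse share a library and a fixed sum. Of 45 pairs, 4 had r above 0.5 among the 23 mice below the gap. Sst and Npy were the closest pair there (r = 0.786), next were Nos1 and Lhx6 (0.781), then Calb2 and Crhbp (0.642) and Vip and Crhbp (0.584). Nos1 had values near 0 with its cell partners, an r of -0.000888 to Sst and -0.0698 to Npy. Pvalb and Th ran opposite to each other (-0.646), as did Pvalb and Nos1 (-0.522). Among the 8 mice above the gap, 8 of the 45 pairs had r above 0.5, with Nos1 and Th at 0.938, Pvalb and Crhbp at 0.887 and Pvalb and Vip at 0.848, and Pvalb with Th was at -0.949. These 8 include vehicle administered WT mouse 2, which had the highest Pvalb, Vip and Crhbp of all mice (283.6, 66.4 and 17.2 TPM). It also had the lowest Nos1 (2.72 TPM) and was listed at 0 for Th. The values above the gap may rest on this mouse, and r without it was not computed.

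**Figure D5:**
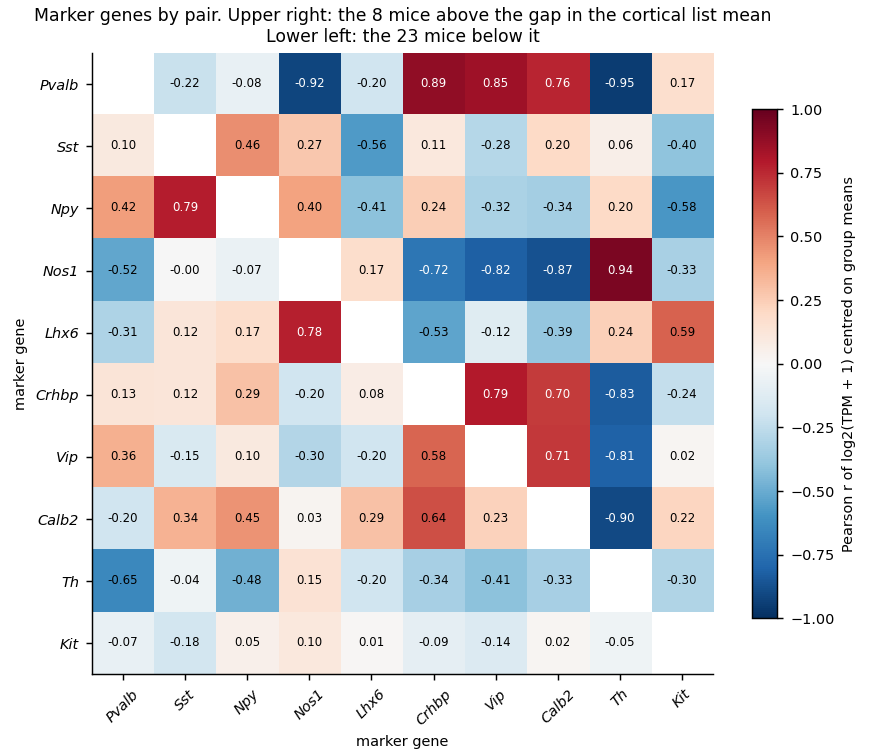
Pearson r between the marker genes across mice, each gene centred on its group means, for the 8 mice above the cortical gap (upper right) and the 23 below it (lower left). Sst with Npy (0.786) and Nos1 with Lhx6 (0.781) lead below the gap, and above it Pvalb, Vip, Crhbp and Calb2 form a block of positive values opposed to Nos1 and Th. The values above the gap include vehicle administered WT mouse 2 and were not computed without it.

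For each marker gene the 3 most similar genes were looked up among the 18194 genes above 0.1 TPM in every mouse, by the centred r over all 31 mice, which runs over both sides of the gap, so that r in the 23 mice below the gap is given here. For Sst the first was Npy (0.786), and for Npy they were Gm5873 (0.482), Sst (0.786) and Itga7 (0.553). Among the genes closest to Pvalb were B2m (0.713) and Chst8 (0.762). Crhbp was closest to Vsnl1 (0.889), Adgra1 (0.907) and Car10 (0.863), and Vip to Sidt1 (0.746), Nrn1 (0.813) and Sez6l (0.770). Calb2 was closest to Fos (0.772), an activity-regulated transcription factor, Dlk2 (0.694) and Mcl1 (0.740). Th was closest to Ptk2b (0.812), Jph4 (0.719) and Trh (0.756), a peptide precursor. Nos1 was closest to Ccdc112 (0.692), Neto1 (0.652) and Sez6 (0.542), Lhx6 to Gm42572 (0.757), Gm2645 (0.674) and Gm9105 (0.434), and Kit to Ccser1 (0.691), Mindy4b-ps (0.657) and Gpat3 (0.461).

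Other genes of interneurons were read from the same fits. Under vehicle, the GABA synthesis and transport list, which projection neurons also express, had 2 of 4 genes higher in Brd1+/- mice at p under 0.01, against 1.47% of all genes. These were Gad2 (0.66, SE 0.208, adjusted p = 0.0635) and the vesicular transporter Slc32a1 (0.71, SE 0.238, adjusted p = 0.0702). Of 13 genes of the medial eminence lineage and fast-spiking cells, 4 were lower and 1 higher at p under 0.01, against 12.1% and 1.47% of all genes. The potassium channel gene Kcnc1 (-0.74, SE 0.226, adjusted p = 0.0589) and the chromatin organizer Satb1 (-1.39, SE 0.392, adjusted p = 0.0556) were among those lower, and Nkx2-1 (0.95, SE 0.314, adjusted p = 0.0686), which specifies this lineage and persists in striatal cells, was the 1 that was higher and is named after its value was seen. Of 6 genes of the somatostatin type 2 were lower, Satb1 and Elfn1 (-0.59, SE 0.189, adjusted p = 0.0644), and both are also in the former list, with the same 12.1% of all genes lower. Of 10 genes of the caudal eminence lineage, 2 were lower, a share not far from the 12.1% of all genes, namely Htr3a (-0.88, SE 0.211, adjusted p = 0.0556) and Npas1 (-1.41, SE 0.352, adjusted p = 0.0556).

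Among 14 receptors and partners of the peptides, 6 were lower and 0 higher at p under 0.01, against 12.1% and 1.47% of all genes. They included the somatostatin receptor Sstr1 (-1.56, SE 0.434, adjusted p = 0.0556), the neuropeptide Y receptor Npy1r (-0.86, SE 0.226, adjusted p = 0.0556) and the Vip receptor Vipr1 (-0.47, SE 0.131, adjusted p = 0.0556). Cholinergic interneuron genes, 7 in all, had none at p under 0.01 and 5 higher at p under 0.05 in limma, against 4.68% of all genes, with a median of 1.05. The median was 0.20 with the cortical covariate and -0.24 without the 8 mice above the gap. Chat, which makes acetylcholine, had a mean ± SD of 7.05 ± 7.05 TPM over the 8 WT mice and of 13.9 ± 3.08 TPM over the 7 Brd1+/- mice. Of the catecholamine genes that could accompany Th, 4 of 6 could be tested and none had a p under 0.05 in limma, and the dopamine transporter Slc6a3 had group means of only 0.0293 to 0.0538 TPM. All 12 striatal projection neuron genes were higher and 9 of 10 cortical genes lower at p under 0.05, against 4.68% of all genes higher and 26.2% lower, at medians of 1.63 and -2.03. These medians turned without the 8 mice, which stand apart by this cortical list, to -0.11 and 1.26, with 3 of 9 tested cortical genes higher at p under 0.01. Of 7 neuroblast genes 4 were lower at p under 0.05, against 26.2% of all genes, and 1 of these at p under 0.01. For other cell types, 0 of 5 genes each of astrocytes, oligodendrocytes, microglia, endothelium and erythrocytes and 0 of 2 tested genes of choroid plexus and ependyma passed p under 0.01 in limma, and none of them p under 0.05 either. After median-of-ratios scaling 4 of 5 microglia genes, at a median of 0.38, and 1 of 5 endothelium genes were higher at p under 0.01, against 3.88% of all genes. Without the 8 mice above the gap, the counts under vehicle at p under 0.01 were 0 of 4 for GABA genes, 1 higher of 13 for the medial eminence, 0 of 6 for the somatostatin type, 1 higher of 9 tested for the caudal eminence and 2 higher of 14 for the receptors, against 0.659% of all genes higher and 0.232% lower. The medians of these lists all turned in that fit, from 0.56 to -0.06 for GABA genes, from -0.35 to 0.15 for the medial eminence, from -0.32 to 0.22 for the somatostatin type, from -0.27 to 0.14 for the caudal eminence and from -0.52 to 0.08 for the receptors, with 2 WT mice against 7. With the cortical covariate the calls at p under 0.01 were 1 lower for the caudal eminence, 1 lower for the receptors and none in the other 3 lists, at medians of 0.20 for GABA genes, -0.05 for the medial eminence, -0.10 for the somatostatin type, 0.01 for the caudal eminence, which turned, and -0.17 for the receptors. After median-of-ratios scaling the counts at p under 0.01 were 3 higher of 4 for GABA genes, 2 lower and 1 higher of 13 for the medial eminence, 1 lower of 6 for the somatostatin type, 2 lower of 10 for the caudal eminence and 5 lower of 14 for the receptors, against 5.33% of all genes lower and 3.88% higher. That scaling left the direction of these medians and of the cholinergic one as it was, and turned that of the catecholamine genes (-0.10 and 0.02).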

How the data were processed

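RNA of 31 CPu punches was sequenced by the authors as single-end 50-base reads on BGISEQ-500. Per the submitters' processing notes, FastQC, Trimmomatic, HISAT2 2.1.0 and StringTie 1.3.4 were used on GRCm38, with Ensembl release 90 in the study's methods. The authors deposited TPM, which sum to between 999787 and 999918 per mouse, so the depth of each library is unknown from them and the edgeR test of the study's methods, which needs counts, could not be used. Symbols of 52489 of 52636 identifiers came from GENCODE M21 (147 had none).

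A gene entered a fit when 7 or more mice exceeded 0.1 TPM, and was tested as log2(TPM + 1) with limma 3.58.1 in R 4.3.3, with Benjamini-Hochberg adjustment over all genes tested, at the study's thresholds of p under 0.01 and an FDR of 5%. Fold changes on this scale understate the change of low genes. Permutation tests, all two-sided, used SciPy 1.17.1. The procedure was run on simulated data, with each gene drawn on its own from its mean and spread in the Brd1+/- mice. The split of the vehicle administered WT group and the relations between genes were not simulated, so that run does not cover them. The marker genes and gene lists were chosen with earlier results of these data known. Named genes are the 10 marker genes, Brd1, up to 3 genes per other list with the smallest p under 0.01, defining tissue markers and the 3 genes most similar to each marker gene. A gene of the last kind is not reported here. Alternatives were another pseudocount (0.1), 2 other filters, median-of-ratios scaling, a replicate block, a cortical covariate and left out mice.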

Additional observations from a re-analysis of the deposited data

Results flagged for a closer look

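In 40 combinations of marker gene and group, 5 held a mouse far from the others, by a gap to the nearest mouse that was a large share of the range of the group, both taken on log2(TPM + 1) (Dixon's test, which flags about 1 in 20 groups by chance). Nos1 in vehicle administered WT mouse 2 was 2.72 TPM, with a gap of 0.782 of the range, and Th in the same mouse was listed at 0 TPM, with a gap of 0.556. This is the mouse whose cortical list mean was above its striatal list mean. Lhx6 in vehicle administered WT mouse 3 was 25.1 TPM (0.673). Kit was 29.5 TPM in vehicle administered Brd1+/- mouse 3 (0.698) and 30.8 TPM in IMN administered WT mouse 3 (0.547). No cause was tested for any of these values.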

How the results depend on the processing

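Under vehicle, 3 marker genes had a p under 0.01. The number was 1 after median-of-ratios scaling, 2 with no filter on low values (without Pvalb), 0 with the cortical covariate and 1 without the 8 mice above the cortical gap (Crhbp, then higher in Brd1+/- mice), and 2 to 6 when single mice were left out, with 5 without WT mouse 6 and 6 without WT mouse 8. In the fits without mouse 6 or 8, 19.9% and 23.8% of all genes passed an FDR of 5%, so the rise was not particular to the marker genes. For IMN in WT mice it was 1, but 0 with the covariate, 0 without the 8 mice, and 0 to 5 when single mice were left out. In the other comparisons it was 0 under every alternative run. Leaving out the 8 mice was chosen after seeing the data, as was leaving out single mice other than vehicle administered WT mice 2 and 7. Those 2 were also left out of the interaction, and each other mouse was left out only in the comparisons with calls.

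Log2 fold changes turned as follows, and the cause was not tested. Under vehicle, the covariate gave 0.085 for Vip and -0.023 for Th, leaving out WT mouse 7 gave -0.014 for Lhx6, and leaving out the 8 mice gave 0.12 for Pvalb, 0.59 for Calb2, 1.54 for Vip, -0.37 for Th and 1.12 for Crhbp. Between genotypes under IMN, Crhbp was 0.085 with a pseudocount of 0.1 and 0.0099 with the covariate, and without the 8 mice Sst was 0.048, Npy 0.077, Vip 0.40 and Crhbp 0.49. For IMN in WT mice, the covariate gave 0.42 for Calb2, -0.21 for Th and 0.023 for Crhbp, leaving out WT mouse 2 gave -0.013 for Th, and leaving out the 8 mice gave 0.92 for Calb2, -0.53 for Th and 0.59 for Crhbp. For the interaction, the covariate gave -0.11 for Calb2, -0.19 for Vip and 0.00058 for Kit, and leaving out the 8 mice gave -0.17 for Pvalb, -0.67 for Calb2, -1.14 for Vip, 0.17 for Th, 0.0057 for Kit and -0.63 for Crhbp. For vehicle administered Brd1+/- against IMN administered WT mice, Crhbp was 0.23 with a pseudocount of 0.1, 0.039 after scaling and 0.017 with the covariate, and without the 8 mice Sst was 0.066, Npy 0.045 and Crhbp 0.53.

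The replicate block moved the count under vehicle from 3 to 2, Pvalb having a p of 0.0102, and no other count. Of 45 pairs of mice with the same number, 11 had an r above 0.1 (-0.447 to 0.495, median 0.0184), so this check showed no pairing by number. It could miss a weak one, since mice with the same number can lie on opposite sides of the cortical gap. The study describes its WT and Brd1+/- mice as litter-matched. Without read counts, the precision of low values such as Vip and Crhbp is unknown.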
